A study of Mus musculus with 6 samples.

Results

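Forkhead factors are transcription factors that share a winged-helix DNA-binding domain, the forkhead box, and are named by a subfamily letter and a number. They include FoxM1, which drives genes of the G2 and M phases of the cell cycle, FoxC and FoxF factors, which act in blood vessel development, and FoxO factors, which favour quiescence. FoxO proteins are held out of the nucleus when the kinase Akt phosphorylates them, so the amount of their transcripts does not by itself give their activity. Their transcripts were followed here in liver sinusoidal endothelial cells, the fenestrated cells lining the sinusoids. The family was taken as every gene of the deposited table whose symbol is Fox, a letter from a to s and a number, which gave 44 of 23472 named genes.

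Cells came from RBPjcKO mice, a conditional endothelial knockout of Rbpj, and from wild-type mice, with 3 libraries of each. The Rbpj product binds DNA and carries the signal of cleaved Notch receptors to their target genes. All mice carried the C57BL/6 background, were 7 to 8 weeks old and received tamoxifen into the peritoneal cavity. The sources used here do not give the Cre driver, the alleles of the wild-type mice, the number of animals behind a library or how the cells were purified. The p-values therefore set the difference between the groups against the spread among these libraries, and part of that spread may be technical. How far they extend to other mice is not known. Named genes took 38740589 to 40459702 read counts in the RBPjcKO libraries and 30958761 to 38203775 in the wild-type libraries. Levels are given as CPM, the counts scaled to a common library size with TMM factors, and as the authors' RPKM, which also divides by gene length, wherever different genes are set side by side.

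The targeted gene followed its labels. Rbpj had 655, 795 and 685 counts in RBPjcKO libraries, against 1524, 1753 and 1439 in wild-type libraries, and its log2 fold change was -1.30 (SE 0.10, edgeR adjusted p = 0.000982). All 10 sinusoidal endothelial markers stood at 1 CPM or more in every library, and their summed level was 23027 to 27120 CPM in RBPjcKO and 23822 to 27270 CPM in wild-type libraries. The sum hides moves of single markers. Clec4g was called lower, at a log2 fold change of -0.89 (edgeR adjusted p = 0.0123), and none was called higher. The log2 fold changes of Stab1, Stab2, Lyve1, Oit3, Pecam1 and Cdh5 lay above 0, and those of Fcgr2b, Gata4 and Kdr below 0. Other liver cells left transcripts too. The 12 hepatocyte markers summed to 1703 to 4862 CPM in RBPjcKO and 1230 to 2287 CPM in wild-type libraries, 3 of them called higher and none at 0. The 9 Kupffer cell markers summed to 577 to 1755 CPM in RBPjcKO and 1187 to 2550 CPM in wild-type libraries, with none called.

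Of the 44 forkhead genes, 26 had enough counts to be tested, and 4 of those differed between the genotypes. Foxm1 was about 5-fold higher in RBPjcKO cells, while Foxc1, Foxo6 and Foxp4 were lower. A gene was called where the p of the edgeR quasi-likelihood test, adjusted by Benjamini-Hochberg over all 14869 genes tested, was under 0.05. By that rule 15.4% of the tested forkhead genes were called, against 16.7% of all genes, so the family's share lay near the background. In each direction, 1 forkhead gene was called higher, where 9% of all genes were, and 3 were called lower, where 7.74% of all genes were. The RBPjcKO and wild-type libraries did not overlap for 10 of the 26 tested forkhead genes (38.5%), against 40.3% of all genes. All RBPjcKO libraries were higher for 3 of them, where 20.7% of all genes were, and all were lower for 7, where 19.6% of all genes were. The median log2 fold change was -0.13 over the tested forkhead genes and -0.00469 over all genes, and the median size regardless of sign was 0.29 for both. The count rested on the libraries. Foxm1 was the only forkhead gene still called when wild type replicate 2 or RBPjcKO replicate 2 was removed, leaving 1 call in place of 4.

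**Figure D1:**
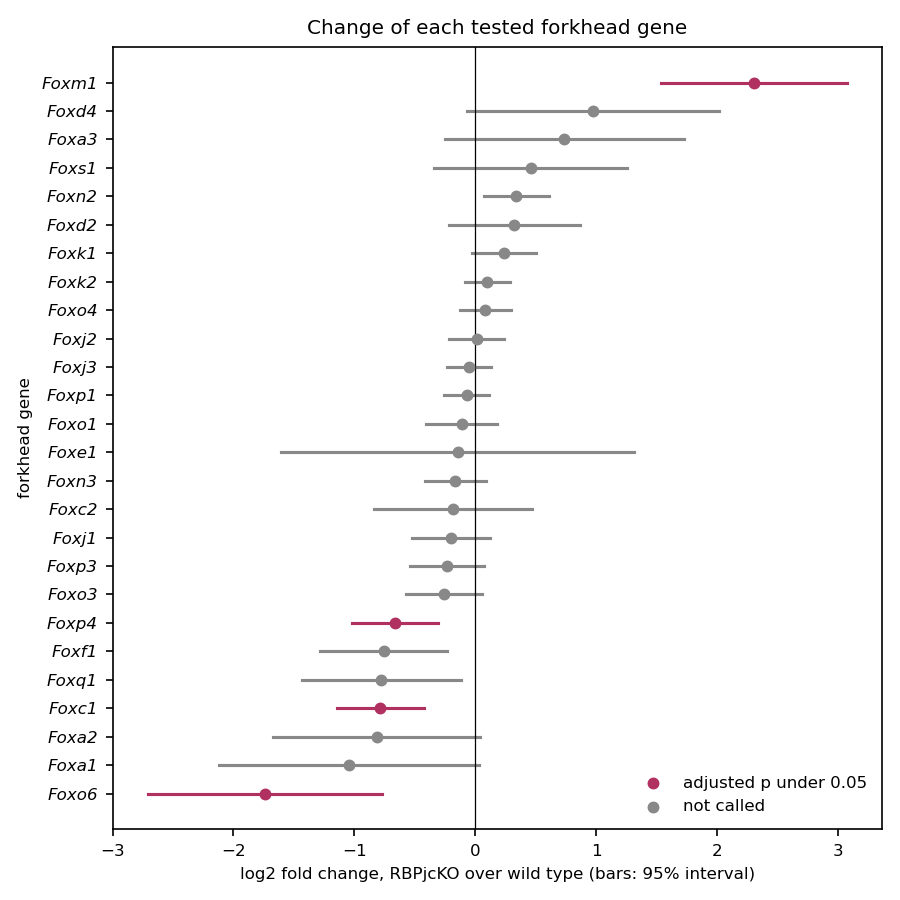
Log2 fold change of each tested forkhead gene, RBPjcKO over wild type, on the horizontal axis, with its 95% interval as a bar (3 libraries per group). Foxm1 stands apart at 2.31, and the called genes Foxp4, Foxc1 and Foxo6 lie at -0.66, -0.78 and -1.74.

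The most abundant forkhead transcripts of wild-type cells were those of the quiescence factors Foxo1 and Foxo3. In wild-type libraries Foxo1 averaged 23.2 ± 2.19 RPKM and Foxo3 averaged 22.2 ± 3.66 RPKM (SD, n = 3 each), a difference smaller than their spread. Below them came Foxj2 at 16.2 ± 0.375 RPKM, Foxk1 at 15.2 ± 1.54 RPKM and Foxn3 at 14.1 ± 0.872 RPKM, and Foxk1 differed from either neighbour in that order by less than its own spread. Foxf1, Foxk2, Foxo4, Foxj3 and Foxp1 completed the 10 genes above 5 RPKM in wild-type cells, a level chosen after the values were seen. In RBPjcKO libraries Foxo1 averaged 21.2 ± 2.19 RPKM, Foxo3 18.4 ± 0.821 RPKM and Foxk1 17.7 ± 1.28 RPKM (SD, n = 3 each). There Foxk1 differed from Foxo3 by less than its own spread.

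Summed over the family, the forkhead level was 155, 164 and 161 RPKM in RBPjcKO libraries, against 171, 171 and 165 RPKM in wild-type libraries. Foxo1, Foxo3 and Foxo4 together made up 29.9% to 32.1% of that sum in RBPjcKO libraries and 30.2% to 34.7% in wild-type libraries. Foxm1 made up 2.16% to 4.36% in RBPjcKO and 0.465% to 0.977% in wild-type libraries, and Foxf1 2.97% to 5.46% in RBPjcKO and 5.74% to 7.96% in wild-type libraries. These shares describe the mixture of transcripts and carry no test.

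**Figure D2:**
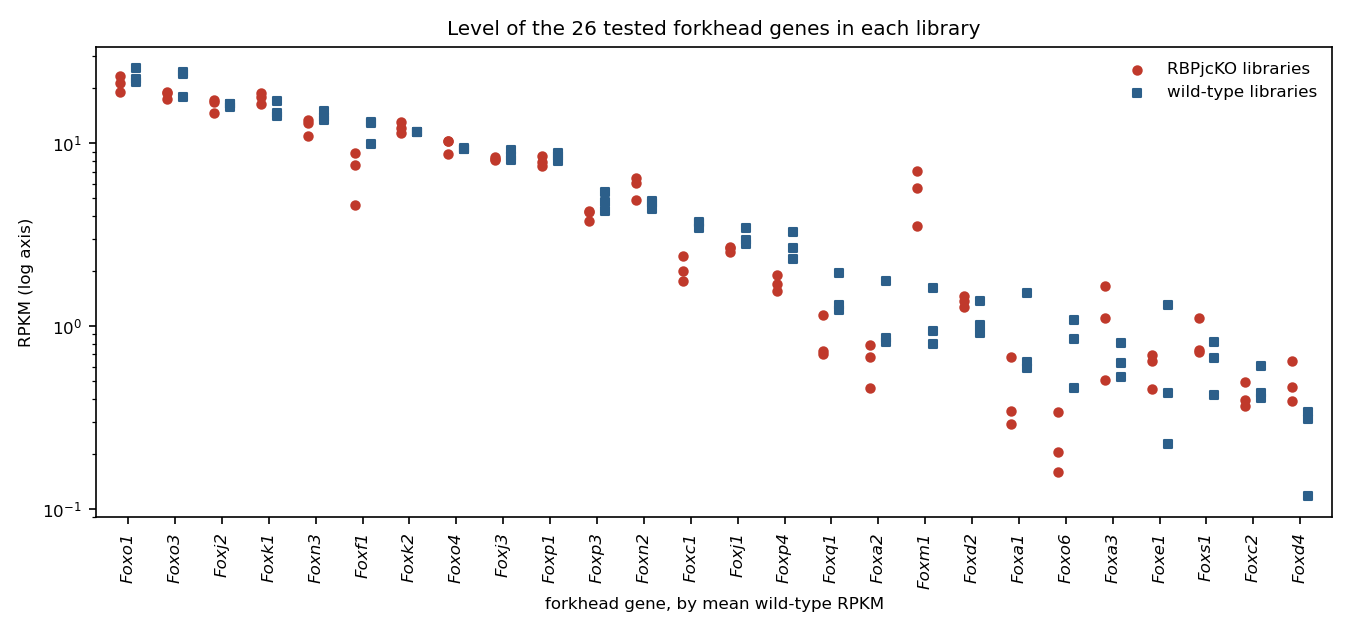
RPKM (log axis) of the 26 tested forkhead genes in each of 3 RBPjcKO libraries (circles) and 3 wild-type libraries (squares), ordered by mean wild-type level. Foxo1 and Foxo3 lead the order, and for Foxm1 the circles lie wholly above the squares.

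Foxm1 (chromosome 6, 128362994 to 128375886, GRCm38), the mitotic forkhead factor, carried the largest change of the tested members. Its level was 30.7, 18.6 and 36.6 CPM in RBPjcKO libraries, against 4.31, 4.79 and 8.29 CPM in wild-type libraries. Every RBPjcKO library lay above every wild-type library, with RBPjcKO replicate 2 the lowest of its group and wild type replicate 3 the highest of its own. The rise was 4.95-fold, with a log2 fold change of 2.31 (SE 0.33, 95% interval 1.54 to 3.08, edgeR adjusted p = 0.00603). The call held with any 1 of the 6 libraries removed, where the log2 fold change ran from 2.09 to 2.65. In these bulk libraries more cells with the transcript and more transcript per cell cannot be told apart.

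Genes that FoxM1 is known to activate were higher too, and whether FoxM1 acted on them in these cells was not tested. Of 18 listed targets, all tested, 16 (88.9%) were called higher, where 9% of all genes were, and none lower. The median log2 fold change of the list was 2.37, beside -0.00469 over all genes. Cenpf, which encodes a kinetochore protein, stood at 24.5, 8.89 and 19.5 CPM in RBPjcKO libraries, against 1.34, 1.79 and 2.40 CPM in wild-type libraries, a 9.57-fold rise (log2 fold change 3.26, SE 0.41, edgeR adjusted p = 0.00410). Top2a, the DNA-decatenating topoisomerase of dividing cells, rose 6.51-fold, Aurkb, a kinase of the chromosomal passenger complex, rose 6.49-fold, and Ccnb1, the mitotic cyclin B1, rose 6.38-fold. The remaining pair did not pass the test. Cenpa, the centromeric histone, averaged 25.1 ± 5.54 CPM in RBPjcKO and 20.2 ± 0.398 CPM in wild-type libraries, and Skp2, a ubiquitin ligase subunit that promotes entry into S phase, averaged 5.37 ± 1.10 CPM in RBPjcKO and 3.46 ± 0.587 CPM in wild-type libraries (SD, n = 3 each). The libraries kept the order seen for Foxm1, with RBPjcKO replicate 2 the lowest of its group for 17 of the 18 targets and wild type replicate 3 the highest of its group for 16. Stil, a centriole duplication gene outside the list, rose 6.27-fold (edgeR adjusted p = 0.0112) and was named after its values were seen. Some markers of granulocytes and B cells were called higher as well. The 6 granulocyte markers summed to 327 to 792 CPM in RBPjcKO and 78.6 to 390.1 CPM in wild-type libraries, which overlapped, with 2 called higher (Mpo and Elane, of granulocyte precursors), and the 5 B cell markers to 8.16 to 12.3 CPM in RBPjcKO and 3.79 to 4.74 CPM in wild-type libraries, with 2 called higher. No granulocyte or B cell marker was at 0 in all libraries, and the part of these cells in the rise of Foxm1 was not tested.

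**Figure D3:**
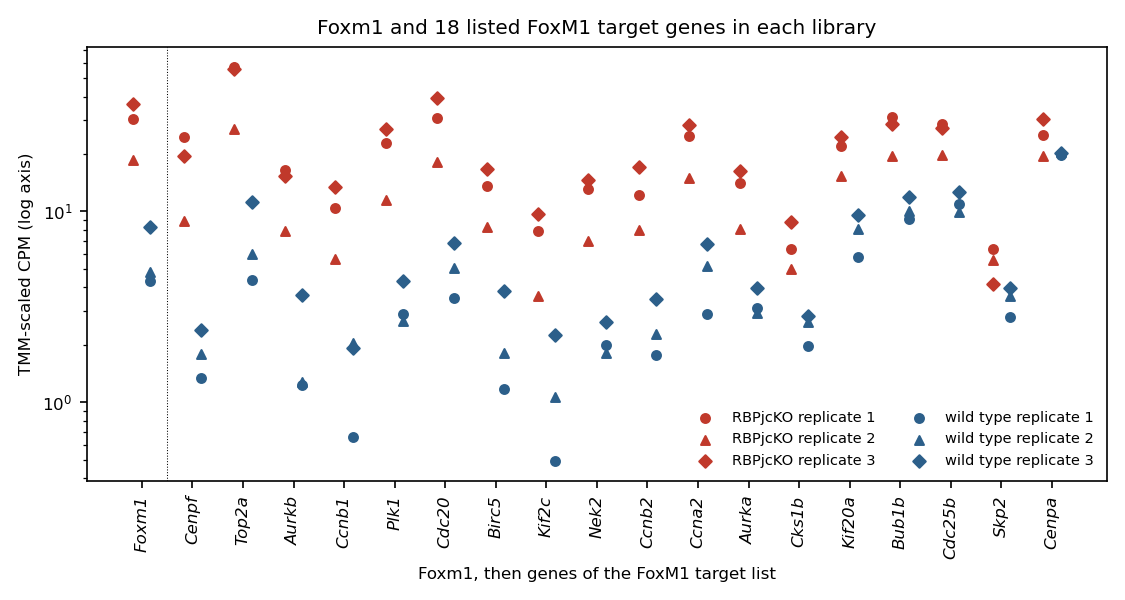
TMM-scaled CPM (log axis) of Foxm1 and of 18 listed FoxM1 targets in each library, RBPjcKO replicates at the left of each gene and wild-type replicates at its right. For Foxm1 and 17 of the targets no wild-type library reaches the lowest RBPjcKO library, and RBPjcKO replicate 2 is usually the lowest of its group.

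Foxm1 lies beside Rhno1, a gene of the DNA damage checkpoint, and 9 tested genes have their lower coordinate within 150 kb of its own. Of those, Rhno1 was called, at a log2 fold change of 0.53 (edgeR adjusted p = 0.0174), which is smaller than that of Foxm1, and the call held in 3 of the 6 fits without a library (adjusted p up to 0.0776).

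The forkhead factors of vessel development were lower or unresolved. Foxc1 (chromosome 13, 31806646 to 31810635), which acts in vascular and eye development, stood at 11.8, 9.64 and 8.37 CPM in RBPjcKO libraries, against 18.4, 16.9 and 16.1 CPM in wild-type libraries. The groups did not overlap, and the log2 fold change was -0.78 (SE 0.16, 95% interval -1.15 to -0.42, edgeR adjusted p = 0.0171), a level 1.72-fold lower. The call was lost without wild type replicate 2 (edgeR adjusted p = 0.0662) and without RBPjcKO replicate 2 (adjusted p = 0.0548). Its partner Foxc2 (chromosome 8, 121116171 to 121118894), which overlaps Foxc1 in vascular roles and is needed for lymphatic valves, was scarce at 1.32, 1.62 and 1.18 CPM in RBPjcKO and 1.36, 1.93 and 1.39 CPM in wild-type libraries. Those values overlapped, and the interval of its log2 fold change was wide, from -0.84 to 0.47.

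Foxf1 (chromosome 8, 121084386 to 121088154), a factor of endothelium and of liver and lung mesenchyme, was the most abundant of the vascular members. It stood at 13.7, 22.3 and 25.5 CPM in RBPjcKO libraries, against 29.6, 36.6 and 37.5 CPM in wild-type libraries. Every RBPjcKO library lay below every wild-type library, with RBPjcKO replicate 1 the lowest, and the adjusted p lay just outside the threshold (log2 fold change -0.76, SE 0.23, 95% interval -1.28 to -0.23, edgeR adjusted p = 0.0585). By DESeq2 it was called (adjusted p = 0.00948), which raised the family's calls to 5 where 24.4% of all genes were called. Foxq1 (chromosome 13, 31558170 to 31560974) had the same pattern at a lower level, with 2.41, 2.46 and 3.85 CPM in RBPjcKO libraries, against 4.26, 4.25 and 6.45 CPM in wild-type libraries, and was not called (edgeR adjusted p = 0.0977). In GENCODE M21, 66.1% of the exonic bases of Foxq1 are shared with A530084C06Rik on the other strand. Whether strand was used in counting is not stated, so reads in the shared bases may come from either gene. The counts listed for Foxq1 are therefore uncertain.

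Some mesenchymal and large-vessel markers were lower too. The 11 stellate cell and fibroblast markers summed to 1189 to 1865 CPM in RBPjcKO and 1822 to 2063 CPM in wild-type libraries, with 3 called lower, none higher and none at 0 in all libraries. Those called lower were Reln, Dcn and Pdgfra. Col1a1, Col1a2, Col3a1, Des and Rgs5 had log2 fold changes of 0.32, 0.25, 0.39, 0.08 and 0.12, and those of Lrat, Pdgfrb and Acta2 lay below 0. The 6 large-vessel endothelial markers summed to 554 to 1207 CPM in RBPjcKO and 1097 to 1728 CPM in wild-type libraries, with 4 called lower, 1 higher and none at 0. Sele was called higher, at a log2 fold change of 2.78, and Selp, at 1.84, was not called. Of the 5 lymphatic markers, which summed to 4120 to 4798 CPM in RBPjcKO and 3311 to 3922 CPM in wild-type libraries, 1 was called higher and 1 lower. Most of that sum was Flt4, a VEGF receptor gene abundant in all 6 libraries, which was called higher at 4068, 4499 and 3688 CPM in RBPjcKO libraries, against 3163, 2806 and 2733 CPM in wild-type libraries. Reln, which is on the stellate cell list too, was called lower (log2 fold change -1.06). Prox1 (-0.81) and Pdpn (-1.54) were not called, and Ccl21a, the remaining lymphatic marker of the list, had no count in any library. The part of these cells in the lower forkhead levels was not tested.

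Several of these genes lie together. Foxf1, Foxc2 and Foxl1 start within 43.3 kb on chromosome 8, and Foxq1, Foxf2 and Foxc1 start within 248 kb on chromosome 13. Fendrr, the long noncoding RNA gene that points away from Foxf1 with its start 1.35 kb off, stood at 3.81, 3.81 and 4.21 CPM in RBPjcKO libraries, against 5.70, 6.34 and 6.49 CPM in wild-type libraries. Its groups did not overlap, and it was called lower with a log2 fold change of -0.65 (SE 0.17, edgeR adjusted p = 0.0384), a call that held in none of the 6 fits without a library, where adjusted p ran from 0.0539 to 0.117. Mthfsd, which lies between Foxf1 and Foxc2, had a log2 fold change of 0.49 and was not called (edgeR adjusted p = 0.0855). Foxl1 and Foxf2, which mark mesenchyme of the gut and liver, had at most 2 counts in a library. On chromosome 4, Foxe3 has its lower coordinate 18.9 kb from that of Foxd2 and had no counts, while Foxd2 averaged 4.34 ± 0.348 CPM in RBPjcKO and 3.46 ± 0.868 CPM in wild-type libraries (SD, n = 3 each) and was not called.

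**Figure D4:**
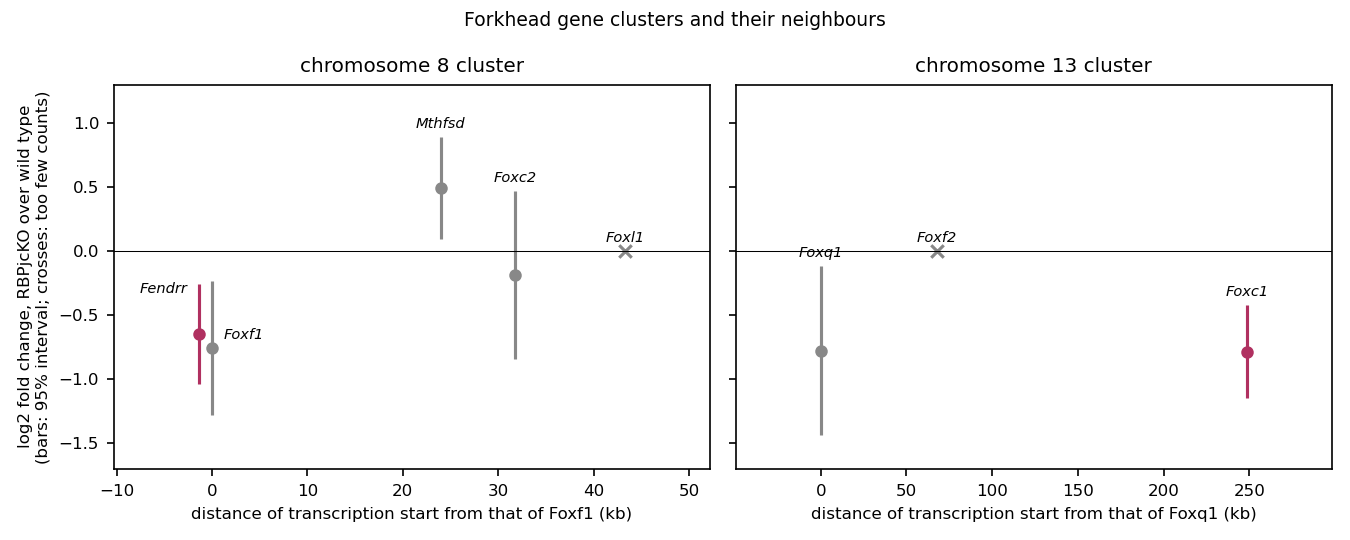
Log2 fold change (RBPjcKO over wild type, bars 95% interval) of genes in the forkhead clusters on chromosomes 8 and 13, against the distance in kb of each start from that of Foxf1 or Foxq1. Fendrr and Foxf1 sit side by side at -0.65 and -0.76, Foxc2 lies near 0, and crosses mark Foxl1 and Foxf2, which had too few counts to test.

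Known target genes of FoxC and FoxF factors in endothelium moved both ways. Of 12 listed genes, all tested, 1 was called higher and 2 lower, which is 25% against 16.7% of all genes, at a median log2 fold change of 0.06. Angpt2, which encodes the Tie2 ligand angiopoietin-2 and is on the FoxO list too, stood at 74.7, 58.1 and 68.5 CPM in RBPjcKO libraries, against 38.3, 41.3 and 38.1 CPM in wild-type libraries, a 1.71-fold rise (edgeR adjusted p = 0.00574). Gja4, the connexin 37 gene and also a large-vessel marker above, fell 2.07-fold (edgeR adjusted p = 0.0481). Flt1, a receptor for VEGF-A, fell 1.51-fold (edgeR adjusted p = 0.0298). Both calls were lost in 5 of the 6 fits without a library. DESeq2 called 6 genes of the list, where it called 24.4% of all genes, and edgeR called 1 when wild type replicate 2, RBPjcKO replicate 2 or RBPjcKO replicate 3 was removed.

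The promoters of the called genes were set beside these values. RefSeq promoter windows on GRCm38.p6, from 250 bases before to 50 after a start, were matched for 28 of the 44 genes and 33 windows, among them Foxc1 and Foxp4. Foxm1, Foxo6 and Foxf1 were not matched. The core letters of the RBPJ site, TGGGAA, were searched on both strands, as was the forkhead core TGTTTAC, and the letters of these motifs do not overlap each other. The RBPJ core was found in 6 of the 33 forkhead windows, those of Foxc1, Foxe3, Foxi1, Foxp1, Foxp3 and Foxr2, where 25.6% of all 32851 windows hold it. The forkhead core was found in 1, that of Foxa1, where 3.65% of all windows hold it. The 250 bases before the start are shown for the called genes that were matched, with the single RBPJ core of Foxc1 in capitals on a line of its own, since it lies at bases 7 to 12 after the start, on the other strand. Foxc1 lies on the plus strand (chr13:31806396-31806645, the site's line chr13:31806640-31806669) and Foxp4 on the minus strand (chr17:47924633-47924882). A match is a description of letters and shows no binding.
Foxc1 upstream: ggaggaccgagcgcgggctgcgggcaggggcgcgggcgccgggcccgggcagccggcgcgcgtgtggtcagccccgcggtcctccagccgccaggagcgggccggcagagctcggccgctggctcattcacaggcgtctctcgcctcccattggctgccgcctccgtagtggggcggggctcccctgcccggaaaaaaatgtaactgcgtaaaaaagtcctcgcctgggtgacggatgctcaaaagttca
Foxc1 site: agttcagaagttTTCCCAatgcttccttaa
Foxp4 upstream: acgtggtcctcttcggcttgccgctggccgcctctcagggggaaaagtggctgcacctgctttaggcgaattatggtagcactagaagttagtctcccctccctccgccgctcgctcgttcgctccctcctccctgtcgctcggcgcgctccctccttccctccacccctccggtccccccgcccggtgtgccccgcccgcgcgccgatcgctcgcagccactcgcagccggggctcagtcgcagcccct
Both upstream stretches are rich in G and C, at 70.8% for Foxc1 and 69.6% for Foxp4.

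Foxp4 (chromosome 17, 47867133 to 47924632), a repressor of the FoxP subfamily that acts in lung and gut development, stood at 7.72, 8.19 and 9.09 CPM in RBPjcKO libraries, against 11.6, 15.4 and 12.6 CPM in wild-type libraries. The groups did not overlap. It was 1.58-fold lower (log2 fold change -0.66, SE 0.15, 95% interval -1.02 to -0.30, edgeR adjusted p = 0.0284), and the call held in 2 of the 6 fits without a library, with an adjusted p of up to 0.0967. By limma on log2(RPKM + 1) Foxp4 narrowly missed the threshold (adjusted p = 0.0505). Its relative Foxp1, a factor of B cells, heart and endothelium and the most abundant of the subfamily, stood at 68.6, 76.7 and 70.4 CPM in RBPjcKO libraries, against 74.4, 74.2 and 78.0 CPM in wild-type libraries. Those values overlapped, and the interval of the log2 fold change ran from -0.26 to 0.11.

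Foxp3, the factor that defines regulatory T cells, was read at 18.2, 20.2 and 19.7 CPM in RBPjcKO libraries, against 26.4, 21.9 and 19.9 CPM in wild-type libraries, and was not called (edgeR adjusted p = 0.251). Cd3e, a chain of the T cell receptor complex, stood at 1.37, 7.12 and 1.18 CPM in RBPjcKO libraries, against 6.55, 6.93 and 6.58 CPM in wild-type libraries, and was low in RBPjcKO replicates 1 and 3. Foxp3 was also lowest in those libraries, over a narrower range, with RBPjcKO replicate 3 at 19.74 CPM beside wild type replicate 3 at 19.87 CPM. Ctla4, of the same T and NK cell list, went the other way, with a log2 fold change of 1.03, and was not called. It stood at 0.829, 0.871 and 0.359 CPM in RBPjcKO libraries, against 0.409, 0.161 and 0.443 CPM in wild-type libraries. The other tested genes of that list had log2 fold changes below 0. The part of T cells in the level of Foxp3 was not tested. The 10 T and NK cell markers summed to 22.6 to 57.1 CPM in RBPjcKO and 51.6 to 62.9 CPM in wild-type libraries, with none called and none at 0 in all libraries. In GENCODE M21, 590 exonic bases of Foxp3 (13.7%) are shared with Ccdc22 on the other strand and 587 (13.6%) with Flicr on the same strand. Ccdc22 is a gene that averaged 42.3 ± 2.92 CPM in RBPjcKO and 41.5 ± 3.42 CPM in wild-type libraries (SD, n = 3 each). The counts listed for Foxp3 are therefore uncertain. Foxp2, best known for its role in neural circuits of speech in humans, had at most 18 counts in a library and was not tested.

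Of the FoxO genes, whose products favour quiescence and are inactivated by insulin and growth factor signalling, only the scarce Foxo6 was called. Foxo1 (chromosome 3, 52268337 to 52350109), a brake on endothelial growth, stood at 159, 143 and 126 CPM in RBPjcKO libraries, against 177, 139 and 147 CPM in wild-type libraries. The groups overlapped, and the interval of its log2 fold change ran from -0.41 to 0.18. Foxo3 stood at 61.9, 65.2 and 65.4 CPM in RBPjcKO libraries, against 88.2, 80.4 and 61.2 CPM in wild-type libraries, and its interval ran from -0.57 to 0.06. Wild type replicate 3 was the low library of its group, and without it Foxo3 was called lower (edgeR adjusted p = 0.0466). Foxo4 stood at 34.1, 39.1 and 38.7 CPM in RBPjcKO libraries, against 36.3, 34.6 and 34.7 CPM in wild-type libraries, with an interval from -0.13 to 0.30. Falls of the log2 level of Foxo1 by more than 0.41, or of Foxo4 by more than 0.13, thus lie outside the intervals.

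Foxo6 (chromosome 4, 120267078 to 120287261), a FoxO member best known from the brain, was the scarce member of the subfamily and the called member with the deepest fall. It had 19, 25 and 40 counts in RBPjcKO libraries, against 53, 94 and 102 in wild-type libraries, which is 0.492, 0.622 and 1.03 CPM against 1.45, 2.51 and 3.23 CPM. The groups did not overlap, with the highest RBPjcKO library below the lowest wild-type library. Foxo6 was 3.34-fold lower (log2 fold change -1.74, SE 0.42, 95% interval -2.71 to -0.77, edgeR adjusted p = 0.0310), and the call held in 2 of the 6 fits without a library, with an adjusted p of up to 0.0931.

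Genes that regulate FoxO proteins were mostly not called. Of 26 listed, all tested, 1 was called higher and 2 lower, 11.5% against 16.7% of all genes. Insr, the insulin receptor gene at the head of this pathway, stood at 180.1, 98.5 and 121 CPM in RBPjcKO libraries, against 436, 339.7 and 232 CPM in wild-type libraries, a 2.52-fold fall (log2 fold change -1.33, SE 0.28, edgeR adjusted p = 0.0212). Akt1, which encodes a kinase that excludes FoxO proteins from the nucleus, rose 1.32-fold without overlap between the groups, at 361 ± 15.2 CPM in RBPjcKO and 274 ± 11.0 CPM in wild-type libraries (SD, n = 3 each, edgeR adjusted p = 0.0190). Pik3r1, the regulatory subunit of PI3-kinase, fell 1.35-fold (edgeR adjusted p = 0.0336). These calls were fragile. DESeq2 called 5 genes of the list, where it called 24.4% of all genes. Leaving out wild type replicate 2 or else RBPjcKO replicate 2 left 0 calls, and leaving out wild type replicate 1 or else RBPjcKO replicate 3 left 1.

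Genes that FoxO factors are known to induce did not move together. Of 25 listed, all tested, 5 were called higher and 5 lower, which is 40% against 16.7% of all genes, at a median log2 fold change of 0.12. The genes called higher were Bbc3, which encodes the pro-apoptotic protein Puma (2.38-fold, edgeR adjusted p = 0.0157), Pdk4, an inhibitor of pyruvate dehydrogenase (2.21-fold), Mxi1, a Myc antagonist (1.86-fold), Angpt2 and Bcl2l11, which encodes the pro-apoptotic protein Bim (1.40-fold). The genes called lower were Insr, Fbxo32, the muscle atrophy ubiquitin ligase gene (1.68-fold), Sesn1, a stress-induced inhibitor of mTORC1 (1.55-fold), Gabarapl1, an autophagy gene (1.38-fold), and Rbl2, a relative of the retinoblastoma gene (1.36-fold). Bcl2l11, Fbxo32, Sesn1, Gabarapl1 and Rbl2 were named after their values were seen. Cdkn1a, which encodes the cell cycle inhibitor p21, is a further gene named after its values were seen, at 324, 327 and 561 CPM in RBPjcKO libraries, against 265, 112 and 179.5 CPM in wild-type libraries, and was not called (edgeR adjusted p = 0.0595). Without wild type replicate 2 the list had 2 higher and 1 lower, without RBPjcKO replicate 2 it had 4 and 1, and without RBPjcKO replicate 3 it had 4 and 2.

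**Figure D5:**
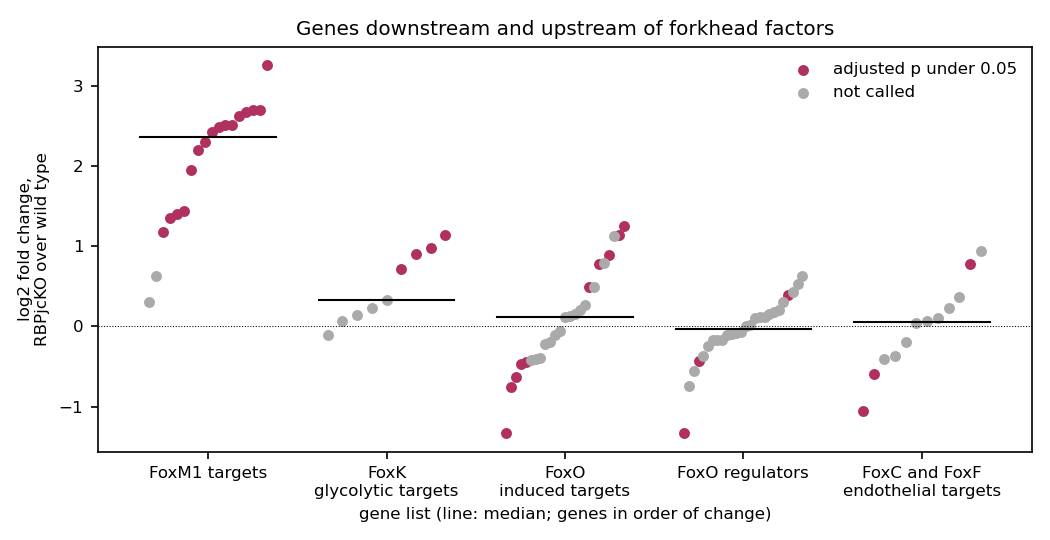
Log2 fold change (RBPjcKO over wild type) of each tested gene in 5 lists of forkhead targets and regulators, in order of change, with the median of each list as a line. The FoxM1 list lies wholly above 0 with a median of 2.37, the FoxK list has a median of 0.34, and the other lists spread to both sides of 0.

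FoxK factors, which promote aerobic glycolysis and restrain autophagy, did not pass the test. Foxk1 stood at 149.7, 169.8 and 159 CPM in RBPjcKO libraries, against 156, 121 and 129 CPM in wild-type libraries, with an interval of the log2 fold change from -0.03 to 0.50, and was not called (edgeR adjusted p = 0.185). Foxk2 stood at 70.6, 79.1 and 72.8 CPM in RBPjcKO libraries, against 71.5, 67.3 and 68.6 CPM in wild-type libraries, with an interval from -0.08 to 0.29. Of 9 tested genes of glycolysis and pyruvate use that FoxK factors are known to induce, 4 were called higher, where 9% of all genes were, and none lower, at a median log2 fold change of 0.34. Pkm, the pyruvate kinase gene, rose 1.97-fold to 1037 ± 108 CPM in RBPjcKO, against 527 ± 30.7 CPM in wild-type libraries (SD, n = 3 each, edgeR adjusted p = 0.00287). Besides Pdk4, the others were Pfkl, the liver-type phosphofructokinase gene (1.88-fold), and Ldha, a lactate dehydrogenase gene (1.65-fold). Without wild type replicate 2 a single gene of this list was called.

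None of the FoxJ and FoxN genes of broad expression was called. Foxj2 stood at 105.8, 101 and 87.0 CPM in RBPjcKO libraries, against 102, 92.0 and 96.7 CPM in wild-type libraries, and its interval was -0.21 to 0.24. Foxj3 stood at 47.3, 46.8 and 47.5 CPM in RBPjcKO and 48.0, 47.3 and 51.3 CPM in wild-type libraries, with an interval from -0.23 to 0.13. Foxj1, the master factor of motile cilia, stood at 8.58, 8.32 and 7.78 CPM in RBPjcKO libraries, against 8.98, 10.4 and 8.99 CPM in wild-type libraries, without overlap and without a call (edgeR adjusted p = 0.338). Foxn3, a checkpoint-linked repressor, overlapped between the groups, at 39.2 ± 4.35 CPM in RBPjcKO and 43.8 ± 2.42 CPM in wild-type libraries (SD, n = 3 each). Foxn2 was higher in every RBPjcKO library, at 30.4, 36.9 and 39.3 CPM, against 27.4, 27.9 and 28.8 CPM in wild-type libraries, and was not called (log2 fold change 0.34, SE 0.11, edgeR adjusted p = 0.0812). Without RBPjcKO replicate 1 it was called (edgeR adjusted p = 0.0439), in 1 of the 6 fits without a library, where edgeR adjusted p ran up to 0.205.

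FoxA factors open chromatin in hepatocytes and bile duct cells, and in these libraries they were scarce. Foxa1 stood at 1.14, 1.32 and 2.57 CPM in RBPjcKO libraries, against 2.35, 5.59 and 2.40 CPM in wild-type libraries, and Foxa2 at 1.19, 2.02 and 1.72 CPM in RBPjcKO libraries, against 2.16, 4.36 and 2.15 CPM in wild-type libraries. Wild type replicate 2 was the high library for both, and neither gene was called (edgeR adjusted p = 0.155 and 0.161). It was also the high library for the summed level of the 7 cholangiocyte markers. Those sums were 85.4, 93.4 and 126 CPM in RBPjcKO libraries, against 226, 398 and 194 CPM in wild-type libraries, with 5 of 7 called lower and none at 0. Of these markers Krt19 was instead highest in wild type replicate 3, at 45.8 CPM beside 44.4 CPM in replicate 2. Foxa3 went the other way, at 1.27, 2.71 and 4.00 CPM in RBPjcKO libraries, against 1.58, 1.93 and 1.27 CPM in wild-type libraries, with RBPjcKO replicate 3 the highest, which was also the library with the highest hepatocyte sum, 4862 CPM. The 6 mesothelial markers summed to 63.2 to 153 CPM in RBPjcKO and 138 to 254 CPM in wild-type libraries, with none called and none at 0. The part of these cells in the FoxA levels was not tested.

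The remaining tested members were scarce. Foxd4 did not overlap between the groups and averaged 1.41 ± 0.350 CPM in RBPjcKO and 0.719 ± 0.351 CPM in wild-type libraries, Foxs1, a gene of pericytes and perivascular cells, averaged 1.35 ± 0.336 CPM in RBPjcKO and 0.988 ± 0.293 CPM in wild-type libraries, and Foxe1, a thyroid factor, averaged 0.806 ± 0.162 CPM in RBPjcKO and 0.888 ± 0.802 CPM in wild-type libraries (SD, n = 3 each). None was called. Foxe1 had the widest interval of the family, from -1.60 to 1.32, and its log2 fold change turned to 0.91 without wild type replicate 1, the library with 66 of its counts.

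Of the 18 members that were not tested, 8 had no count in any library, among them Foxb1, Foxb2, Foxe3, Foxi1, Foxi2, Foxr1 and Foxr2, where 3 counts, taken as the limit that a count of 0 allows, correspond to 0.0747 to 0.0777 CPM in RBPjcKO and 0.0803 to 0.0949 CPM in wild-type libraries. The other 10, Foxd1, Foxd3, Foxf2, Foxh1, Foxi3, Foxl1, Foxl2, Foxn1, Foxn4 and Foxp2, had between 0 and 18 counts in a library. These silent or nearly silent genes include the ovarian factor Foxl2, the thymic factor Foxn1 and the neural crest factor Foxd3. Such limits cover counting error only.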

How the data were processed

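RNA was measured in 6 libraries of liver sinusoidal endothelial cells, sequenced as paired reads of 150 bases per the labels' protocols. The submitters' processing notes name bcl2fastq, TopHat2 2.0.13 and the build mm10 (GRCm38). No source used here states how reads were counted or whether strand was used. Per the file headers, the table deposited by the authors holds raw counts and RPKM per gene. Libraries were grouped by the genotype label.

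Of 56825 entries, 33353 cDNA clones were left out, which held 15.9% to 17.4% of counts, and 23472 named genes were kept, 27 of them restored from spreadsheet dates. The counts of genes passing filterByExpr (at least 10 counts, 15 in total) were fitted with the quasi-likelihood model of edgeR 4.0.16 in R 4.3.3 after TMM scaling (common biological coefficient of variation 0.204), adjusting over all 14869 genes. The SE was approximated as the log2 fold change divided by the root of F, and gives the 95% intervals. The fit was tested on simulated counts. Alternatives were DESeq2 1.42.0, limma 3.58.1 on log2(RPKM + 1), other scalings, filters and thresholds, a robust fit, clones included, and each library left out.

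Members, lists and tests were chosen with earlier results of these data known. Named are the members, except for an item that is not reported here, Rbpj, up to 4 called genes of each list by size of change, and neighbours with their lower coordinate within 150 kb, of which those in clusters or beside a called member are described. Exon overlaps come from GENCODE M21 and promoters from RefSeq. Python 3.11.15 made tables and figures.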

Additional observations from a re-analysis of the deposited data

How the results depend on the processing

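Each result was recomputed under 14 other settings, and each count also at an adjusted p under 0.01. The forkhead genes called, 4, were 1 at that stricter threshold and 1 to 5 without a library. All genes called numbered 2489, 605 at the stricter threshold, and 796 to 1836 without a library. FoxO regulators called, 3, were 5 by DESeq2, 0 at the stricter threshold and 0 to 2 without a library. FoxO induced targets, 10, were 2 at the stricter threshold and 3 to 9 without a library. FoxM1 targets, 16, were 10 at the stricter threshold and 12 to 16 without a library. FoxC and FoxF targets, 3, were 6 by DESeq2, 1 at the stricter threshold and 1 to 3 without a library. FoxK targets, 4, were 1 at the stricter threshold and 1 to 4 without a library. The cause of these moves was not tested.

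Of the tested forkhead genes only Foxe1 and Foxj2, neither called, changed sign. Foxe1 was -0.14, and 0.0023 by limma. Without a library it ran from -0.57 to 0.91, the last without wild type replicate 1. Foxj2 was 0.01, and -0.0048 with no scaling, -0.028 with upper-quartile scaling, -0.0016 with the filter at 5 CPM and -0.0056 by limma. Without a library it ran from -0.054 to 0.093. With wild type replicate 2, RBPjcKO replicate 1 or RBPjcKO replicate 2 removed it was -0.031, -0.054 and -0.0088. The filter at 5 CPM left 10 of the forkhead genes untested, the called Foxo6 among them. Foxf1 was called by DESeq2, with no filter, with upper-quartile scaling and without RBPjcKO replicate 3. The median log2 fold change of all genes stayed between -0.048 and 0.00047 across settings. No paired analysis was possible because the labels number the libraries 1 to 6 and give the groups no shared numbers.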

Other observations

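Some cDNA clones of the deposited table, left out of the comparisons, lie inside forkhead genes. A clone of 1150 bases over the end of Foxf1 had 157, 320 and 321 counts in RBPjcKO libraries, against 404, 490 and 412 in wild-type libraries, so its groups did not overlap, as for Foxf1 itself. A pair of clones listed on the strand opposite to Foxa2, covering 73.9% of its length, took 60.9% to 77.9% of the counts of Foxa2 in each library. Counts of this table thus do not separate the strands at that locus.

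Stil, a centriole duplication gene whose lower coordinate lies 93.8 kb from that of Foxd2, was named after its values were seen. It was called higher with a log2 fold change of 2.65 (edgeR adjusted p = 0.0112), while Foxd2 at 0.32 was not. Mdfi, which encodes an inhibitor of myogenic factors and lies near Foxp4, was called higher at 1.26 (edgeR adjusted p = 0.000982), the direction opposite to that of Foxp4.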
